A study of Mus musculus with 2 samples.

Results

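Cluster C5 of the mouse melanoma line B16F10 is described here at the level of single cells. Its members are the cells that the authors' deposited cell table assigns to B16F10 and to cluster C5, which were 1045 of the 1574 B16F10 cells and of the 4156 cells in both libraries. The labels call B16F10 a subclone of the parental line B16F0 that is highly metastatic, and each line was sequenced as 1 untreated library of droplet 3' RNA tags counted by unique molecular identifiers (UMIs). The other 529 B16F10 cells were 306 cells of cluster C3, 212 of C4, 7 of C1 and 4 of C2, and the 2582 B16F0 cells lay in all 5 clusters. Cells of 1 culture are not replicates, and the clusters were made from the same RNA, so every difference is a description of these cells with no test. Intervals cover counting error at 95% only.

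B16 cells are malignant melanocytes. Melanocytes make the pigment melanin in organelles called melanosomes, under the transcription factor Mitf. Cells that divide copy their DNA in S phase and separate it in G2 and M phase, and each step has its own set of transcripts. Cells that meet amino acid shortage, misfolded protein or other stress phosphorylate the initiation factor eIF2, which lowers general translation and favours that of the transcription factor ATF4. ATF4 and its partners bind C/EBP-ATF response elements, whereas the sensor ATF6 acts on chaperone genes of the endoplasmic reticulum (ER) through ER stress response elements.

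Selected genes of that response stood apart in C5, some lower and some higher. The promoter sequence around these elements is shown first for 6 genes at least 1.5-fold away, picked because they hold a match. The windows run from 250 bases before to 50 bases after each annotated start in RefSeq on build GRCm38.p6. The C/EBP-ATF response element was searched as TGATGNAA on both strands, which is TTNCATCA when read on the other strand. It occurred in 4.51% of 27025 genes with a window. The ER stress response element was searched as CCAAT and CCACG separated by 9 bases, on both strands, and occurred in 0.137% of those genes. Neither search removed overlaps between elements. In each line below the match is in capitals, and the sequence is the gene's own strand from 5' to 3'. Nupr1 (chr7:126625548-126625605), Atf3 (chr1:191183411-191183468) and Slc7a11 (chr3:50443647-50443704) lie on the minus strand and Chac1 (chr2:119351024-119351081) on the plus strand. All 4 had fewer transcripts in C5 than in the other B16F10 cells, and each holds a C/EBP-ATF response element. Slc7a11 holds a second match, in lower case here.
Nupr1: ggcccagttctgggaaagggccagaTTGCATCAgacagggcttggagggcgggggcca
Atf3: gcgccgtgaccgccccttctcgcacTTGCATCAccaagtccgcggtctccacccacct
Chac1: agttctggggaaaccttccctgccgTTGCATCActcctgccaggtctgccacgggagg
Slc7a11: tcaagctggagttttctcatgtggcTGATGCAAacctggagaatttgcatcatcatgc
Creld2 (chr15:88819495-88819563, plus strand) and Hsp90b1 (chr10:86705508-86705576, minus strand) had more transcripts in C5 than in the other B16F10 cells, and each holds an ER stress response element. Hsp90b1 holds a second match within chr10:86705613-86705681, outside the stretch shown here.
Creld2: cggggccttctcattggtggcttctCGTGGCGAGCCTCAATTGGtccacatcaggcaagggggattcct
Hsp90b1: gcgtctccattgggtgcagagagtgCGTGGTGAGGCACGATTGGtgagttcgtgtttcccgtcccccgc

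Most C5 cells were cycling. The cycling class of the authors' deposited annotation was carried by 986 of the 1045 C5 cells, 94.4% (exact binomial interval 92.8 to 95.7), against 244 of the other 529 B16F10 cells, 46.1% (41.8 to 50.5). All 212 C4 cells of B16F10 were also cycling, while 26 of the 306 C3 cells were. The class equalled a score above 0 for S phase or for G2/M in each of these cells, and in 45 C5 cells the higher of the 2 scores lay within 0.05 of 0. The S score was above 0 in 799 C5 cells, the G2/M score in 698 and both in 511. The trajectory state was 1 in 1014 C5 cells, 7 in 30 and 5 in 1 cell. The authors' coarser clustering called all 1045 C5 cells F10, and 486 of the other 529 B16F10 cells.

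**Figure D1:**
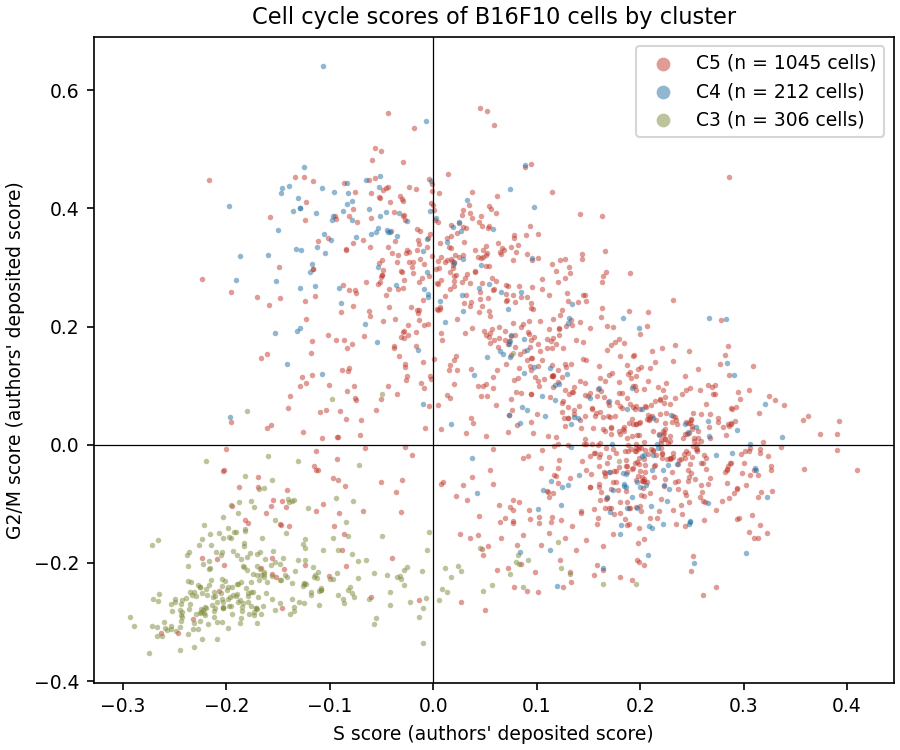
Authors' deposited S score (horizontal axis) and G2/M score (vertical axis) of single B16F10 cells, 1 point per cell, for C5 (n = 1045), C4 (n = 212) and C3 (n = 306). C5 and C4 cells share the arc of positive scores, and most C3 cells lie where both scores are below 0.

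C5 cells were deeper and had a lower mitochondrial share than the other B16F10 cells. They held 10783 to 84433 UMIs, with a median of 37725, and a median of 5544 genes. The median was 29693 UMIs in C4 and 30159.5 in C3, with 5142.5 and 4839.5 genes. Mitochondrially encoded transcripts took a median of 6.17% of UMIs in C5 cells, 8.59% in C4 and 7.88% in C3. A share above 10% was found in 48 C5 cells (4.59%), in 65 C4 cells (30.7%) and in 68 C3 cells (22.2%). Conversely, 1 C5 cell but 14 C4 cells and 1 C3 cell had under 1%. Depth and mitochondrial share thus moved with each comparison of clusters below, and their part in the results was not tested. The same barcode occurred in both libraries 6 times, and the B16F10 cell was in C5 each time. These cells held 25716 to 60823 UMIs, and the counts of genes past a fold were 654 higher and 296 lower without them, against 650 and 294 with them.

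The label's markers are Met, the receptor for hepatocyte growth factor, and Ppargc1a, a coactivator that drives mitochondrial biogenesis. Both were far higher in B16F10 than in B16F0, and neither was highest in C5. Met had 132.6 CPM (UMIs of the gene per 1000000 UMIs, both summed over the cells) in C5 cells, against 131.1 CPM in C4, 189.4 CPM in C3 and 13.1 CPM in all B16F0 cells. Its log2 ratio over the other B16F10 cells was -0.32 (-0.39 to -0.25). Ppargc1a had 89.8 CPM in C5, against 174.7 CPM in C4, 226.3 CPM in C3 and 4.78 CPM in B16F0. Its log2 ratio over the other B16F10 cells was -1.19 (-1.26 to -1.12), and it was lower in C5 than in both C4 and C3. On GRCm38 Met lies on chromosome 6 from 17463800 to 17573980 and Ppargc1a on chromosome 5 from 51454250 to 51567726, and both are protein-coding. C5 is therefore called here by its cluster name and not by these genes.

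The melanocyte identity of the cells was plain in the counts. Dct and Tyrp1, enzymes of melanin synthesis, had 2738 and 2135 CPM in C5, against 3278 and 2459 CPM in the other B16F10 cells. Pmel, the fibre protein of the melanosome, had 762 CPM against 661 CPM, and Mlana 1727 CPM against 1239 CPM. Tyr, the first enzyme of the pathway, had 16.1 CPM against 26.6 CPM, a log2 ratio of -0.73 (-0.90 to -0.55). Mitf had 157 CPM against 181 CPM, and the lineage factor Sox10 had 104 CPM against 110 CPM. Markers of other cell types were near 0, with 1 exception. The 5 fibroblast markers among the counted genes summed to 9.56 CPM in C5 and 10.0 CPM in the other cells. The 4 macrophage markers summed to 3.53 and 4.94 CPM, the 3 keratinocyte markers to 0.0501 and 0 CPM, and no T or NK cell marker was among the counted genes. Of the endothelium markers only Egfl7 passed 20 CPM, with 62.5 CPM in C5 and 64.1 CPM in the other cells.

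**Figure D2:**
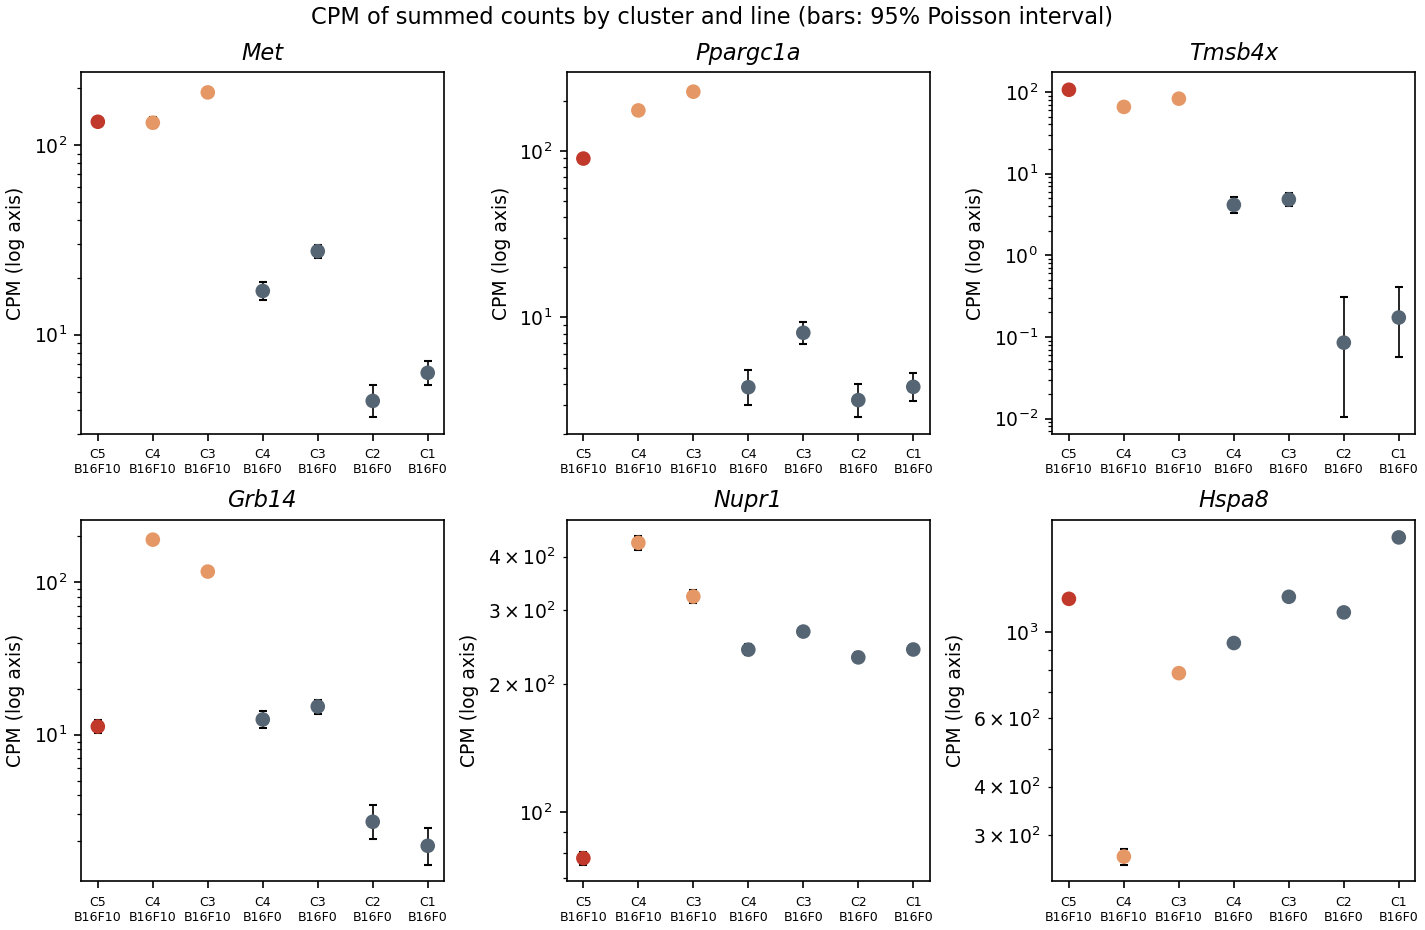
CPM of summed counts on log axes for 6 genes in C5, C4 and C3 of B16F10 and in C4, C3, C2 and C1 of B16F0, with 95% Poisson intervals as bars. Met, Ppargc1a and Tmsb4x are higher in each B16F10 cluster than in each B16F0 cluster, while Grb14 is highest in C4 and C3 of B16F10, at 190.6 and 117.6 CPM.

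Against the other B16F10 cells, 5438 genes had at least 20 CPM in the higher set. Of these, 650 (12%) were at least 1.5-fold higher in C5 and 294 (5.41%) at least 1.5-fold lower. At 2-fold the counts were 141 (2.59%) and 87 (1.60%). Across all of these genes the median log2 ratio was 0.10. When mitochondrial and ribosomal protein transcripts were left out of the totals, every ratio shifted by -0.12, which gave 429 higher and 442 lower genes. Higher genes were then 49.3% of those past 1.5-fold, against 68.9% with all UMIs in the total. The shares named here are the background against which each gene group is read.

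Genes of DNA replication led the higher end. Tk1, the thymidine kinase of dividing cells, had 139 CPM in C5 cells and 42.6 CPM in the other B16F10 cells, a log2 ratio of 1.70 (1.59 to 1.82). Rrm2, a ribonucleotide reductase subunit, had 270.0 CPM against 103 CPM, and Lig1, the replicative DNA ligase, had 138 CPM against 53.2 CPM. Gmnn, the inhibitor of origin licensing, Rpa2, a single-strand DNA binding subunit, the cyclin gene Ccna2 and the kinase gene Cdk1 had log2 ratios of 1.43 to 1.49. Pbk, a mitotic kinase gene, had 78.8 CPM against 27.9 CPM. Of 39 measured genes on the S phase list, 37 were 1.5-fold higher in C5 and none lower, with a median log2 ratio of 0.99. Of 48 measured genes on the G2 and M phase list, 33 were higher and 0 lower, at a median of 0.75. Over all measured genes 12% were higher. More C5 cells than other B16F10 cells carry the cycling class, which follows from scores of such transcripts. These counts and medians are thus not independent of the class and are not read as a result. They also depended on the cells set against C5. The median of the G2 and M list was 2.92 against C3 and -0.34 against C4, and -0.14 among cycling cells alone.

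The other 4 of the 12 named genes at the higher end are not cell cycle genes. Id2, an inhibitor of basic helix-loop-helix factors, had 242 CPM in C5, 85.9 CPM (78.9 to 93.4) in C4 and 93 CPM (87.1 to 99.2) in C3, and the intervals of C4 and C3 overlapped. Cacybp, a calcyclin-binding ubiquitin ligase partner, had 326 CPM in C5, 127.3 CPM in C4 and 130.2 CPM in C3. Tmem97, a sterol-regulated membrane protein, had 92.9 CPM in C5, 33.9 CPM in C4 and 34.0 CPM in C3. Slc25a10, the mitochondrial dicarboxylate carrier, had 52.7 CPM in C5, 21.9 CPM in C4 and 15.8 CPM in C3. These 4 were higher in C5 than in both of the other large clusters, the cycling C4 included. The cell cycle genes among the 12 were also higher in C5 than in both C4 and C3. Among them, Tk1 had 139 CPM in C5 and 83.9 CPM in C4, and Ccna2 had 115 CPM in C5 and 97.3 CPM in C4. All of these C4 cells carried the cycling class, and the cause of the differences from C4 was not tested.

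**Figure D3:**
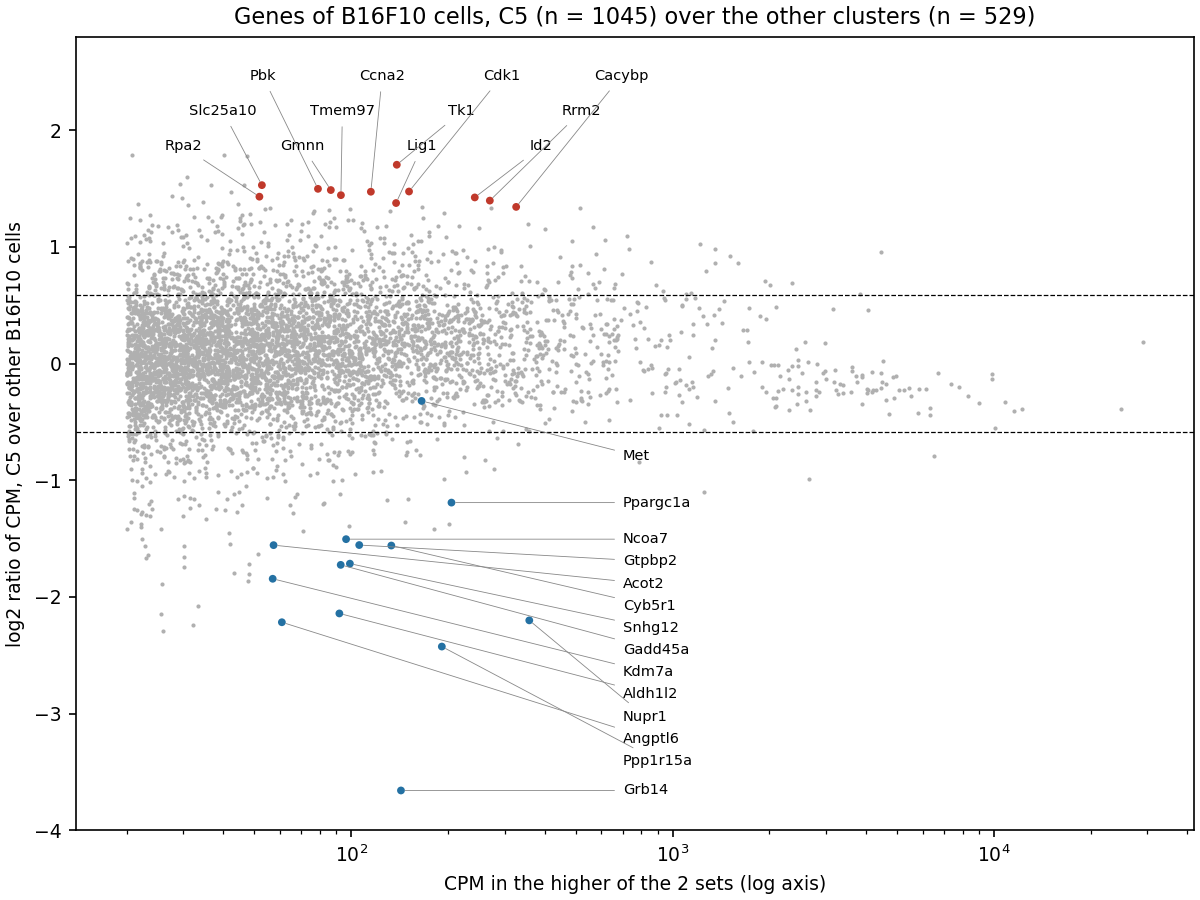
Log2 ratio of CPM in C5 (n = 1045 cells) over the other B16F10 cells (n = 529), against CPM in the higher set on a log axis, 1 point per gene. Dashed lines mark 1.5-fold; red and blue points are the 12 named genes at each end with Met and Ppargc1a, and Grb14 lies lowest at -3.66.

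The lower end was led by Grb14, which encodes an adaptor that binds the insulin receptor and dampens its signal. Grb14 had 11.3 CPM (10.3 to 12.4) in C5, against 190.6 CPM (180.1 to 201.6) in C4 and 117.6 CPM (111.0 to 124.6) in C3. Its log2 ratio over the other B16F10 cells was -3.66 (-3.81 to -3.51), and -4.07 against C4 and -3.38 against C3. Nupr1, a stress-induced chromatin protein, had 77.9 CPM in C5, 431.4 CPM in C4 and 322.3 CPM in C3. Ppp1r15a, the phosphatase subunit that reverses eIF2 phosphorylation, had 35.6 CPM in C5, 250.5 CPM in C4 and 158.8 CPM in C3. The 3 genes were lower in C5 than in both other clusters. They were also lower among cycling and among non-cycling cells, which largely repeats this, since those sets are mostly C4 and mostly C3 cells. Grb14 lies on chromosome 2 from 64912476 to 65024987, Nupr1 on chromosome 7 from 126623249 to 126630861, and Ppp1r15a on chromosome 7 from 45522916 to 45526268, all on GRCm38.

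The remaining 9 of the 12 had log2 ratios of -2.22 to -1.51. They were the secreted factor gene Angptl6, the mitochondrial folate enzyme gene Aldh1l2, the histone demethylase gene Kdm7a, the growth arrest gene Gadd45a, the small nucleolar RNA host gene Snhg12, the reductase gene Cyb5r1, the acyl-CoA thioesterase gene Acot2, the ribosome rescue factor gene Gtpbp2 and the coactivator gene Ncoa7. Aldh1l2 had 20.8 CPM in C5, 126 CPM in C4 and 71.6 CPM in C3, and Gadd45a had 28.1 CPM in C5, 129 CPM in C4 and 71.7 CPM in C3. In both the order was C4, then C3, then C5. Of the 12 genes, Nupr1 was the only one of 11 with a promoter window that held a C/EBP-ATF response element.

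The values of these genes in B16F0 place C5 differently from gene to gene. Grb14 stood at 1.86 CPM in C1, 2.68 CPM in C2, 15.3 CPM in C3 and 12.6 CPM in C4 of B16F0, so C5 of B16F10 lay within that range and C4 and C3 of B16F10 above it. Nupr1 had 77.9 CPM in C5, against 232 to 266 CPM in those 4 clusters of B16F0. Ppp1r15a had 35.6 CPM in C5, against 48.9 to 81.8 CPM there. C5 was thus below every large cluster of either line for Nupr1 and Ppp1r15a. A difference between the lines cannot be told apart from one between the libraries.

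The ATF4 and unfolded protein response list split in 2 directions. Of its 22 measured genes, 7 were at least 1.5-fold lower in C5, 4 at least 1.5-fold higher and 11 between, with a median of -0.08. Over all measured genes 5.41% were lower and 12% higher. The lower genes were Ddit3 and Atf3, transcription factors of the response, the pseudokinase gene Trib3, the glutathione-degrading enzyme gene Chac1, the cystine exchanger gene Slc7a11, the growth regulator gene Sesn2 and the ER co-chaperone gene Dnajb9. Ddit3 had 77.6 CPM in C5, 249 CPM in C4 and 176 CPM in C3, a log2 ratio over the other B16F10 cells of -1.38 (-1.45 to -1.31). Slc7a11 had 47.0 CPM in C5, 117 CPM in C4 and 81.7 CPM in C3. Atf4 itself had 232 CPM in C5, 402 CPM in C4 and 232 CPM in C3, so its transcript was lower against C4 and level with C3. Atf3 is the exception among non-cycling cells, where its log2 ratio was 0.12.

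The higher genes of that list all act inside the ER. Hsp90b1, an ER chaperone, had 487 CPM in C5, 191 CPM in C4 and 262 CPM in C3. Manf had 359 CPM in C5, 150.3 CPM in C4 and 197 CPM in C3. Creld2, a disulfide isomerase, had 82.6 CPM in C5, 35.6 CPM in C4 and 35.5 CPM in C3, and Sdf2l1, a cofactor of ER chaperones, had 112 CPM in C5, 35.0 CPM in C4 and 65.6 CPM in C3. Calr and Pdia3, ER folding genes of the MHC class I list, were higher as well. Calr had a log2 ratio over the other B16F10 cells of 1.06 (1.01 to 1.10) and Pdia3 of 1.18 (1.11 to 1.26). Hspa5, the most studied ER chaperone, did not share this, with 223 CPM in C5, 207 CPM in C4 and 267 CPM in C3. Among the promoter windows of the list, the C/EBP-ATF response element occurred in 4 of 7 lower genes (Atf3, Chac1, Slc7a11 and Trib3), in 2 of 11 between and in 0 of 3 higher genes with a window. The ER stress response element occurred in 2 of those 3 higher genes, in Hspa5 among the genes between and in none of the lower genes. Over all genes with a window the shares were 4.51% and 0.137%. The list was chosen as genes of this response and its groups are small, so its matches are not read as a result about C5. A match is a description of the letters and not evidence of binding.

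Several lists outside the cell cycle leaned one way against the other B16F10 cells, where 12% of all measured genes were higher and 5.41% lower. The higher share depends on scaling, with 429 higher genes in place of 650 when mitochondrial and ribosomal protein transcripts left the totals. Of 25 proteasome genes 11 were at least 1.5-fold higher in C5, of 25 splicing factor genes 8, of 17 heat shock and chaperonin genes 8 and of 11 cholesterol synthesis genes 6, and no member of these lists was 1.5-fold lower. Psmd1, a subunit of the proteasome's regulatory particle, had 84.8 CPM in C5, 37.7 CPM in C4 and 44.7 CPM in C3. The oxidative stress and iron list held 5 higher genes and 1 lower gene of 18. Tfrc, the transferrin receptor that brings iron into cells, had 85.3 CPM in C5, 30.6 CPM in C4 and 33.3 CPM in C3, whereas Hmox1, which breaks down heme, had 27.9 CPM in C5, 50.9 CPM in C4 and 74.6 CPM in C3. Of 6 chromatin demethylase genes 3 were lower and none higher, among them Kdm4a with 14.5 CPM in C5, 38.9 CPM in C4 and 31.0 CPM in C3. Of 7 hypoxia response genes 3 were lower, and Vegfa, the vascular growth factor, had 8.89 CPM in C5, 25.5 CPM in C4 and 18.8 CPM in C3. Of 10 cell cycle inhibitors and p53 targets 4 were lower and 1 higher. The 17 measured melanin and melanosome genes included 1 lower gene (Tyr) and none higher, and the 4 interferon response genes none in either direction. A single lower gene in a list of 17 or 18 is near the share over all genes.

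All C4 cells and 986 of the 1045 C5 cells carried the cycling class, so C5 against C4 sets mostly cycling cells against cycling cells. Of 5626 measured genes, 684 (12.2%) were 1.5-fold higher in C5 and 604 (10.7%) lower, with a median log2 ratio of -0.01. Under TMM scaling the counts were 891 and 453, and higher genes were 66.3% of those past 1.5-fold against 53.1%. Hspa8, the constitutive heat shock cognate chaperone, was the highest named gene, with 1218 CPM (1207 to 1229) in C5, 264 CPM (252 to 277) in C4 and 784 CPM (767 to 802) in C3. Its log2 ratio over C4 was 2.20 (2.13 to 2.28). The other genes named at this end were Fam212a, Pdia3, Sdf2l1, the collagen-processing enhancer gene Pcolce, the protease inhibitor gene Timp2, Marcksl1 and the lactate dehydrogenase gene Ldha, with log2 ratios of 1.59 to 2.03. At the lower end Tenm4, a teneurin, had 7.88 CPM in C5 and 51.2 CPM in C4, and the thioesterase gene Them4 had 13.1 CPM in C5 and 61.2 CPM in C4.

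Gene lists differed in how many members stood apart from C4, where 12.2% of all measured genes were higher in C5 and 10.7% lower. Of 13 measured glycolysis genes, 11 were 1.5-fold higher in C5 than in C4 and none lower, and their median log2 ratio was 0.92. Ldha had 1356 CPM in C5, 446 CPM in C4 and 941 CPM in C3, Aldoa had 1175 CPM in C5, 457 CPM in C4 and 1023 CPM in C3, and Gapdh had 3157 CPM in C5, 1394 CPM in C4 and 2854 CPM in C3. Against C3, 3 of 14 glycolysis genes were lower in C5 and none higher, and the median was -0.01. These ratios are of summed counts, and per cell Ldha, Eno1 and Aldoa exceeded the C3 median in most C5 cells, as given below. Over all genes 5.37% were lower and 16.6% higher against C3. Of 25 proteasome subunit genes, 18 were higher than in C4 and 0 lower, at a median of 0.68. Psma7 had 613 CPM in C5, 270 CPM in C4 and 405 CPM in C3. Of 17 heat shock and chaperonin genes, 10 were higher and 1 was lower than in C4. That one was Hspa9, the mitochondrial chaperone, with 280 CPM in C5 and 474 CPM in C4. Of 11 cholesterol synthesis genes, 8 were higher and 0 lower, at a median of 0.90.

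The counts were also taken within each phase, as an alternative chosen after seeing the data. Among cells whose G2/M score exceeded the S score, C5 over C4 gave 746 (13.2%) higher and 679 (12%) lower genes of 5646. Among the other cycling cells it gave 760 (13.5%) and 641 (11.4%) of 5621. The log2 ratio of Hspa8 was 2.25 in the first set and 2.16 in the second, that of Ldha was 1.57 and 1.67, and that of Grb14 was -4.11 and -4.25. With cells under 1% mitochondrial UMIs left out on both sides, the counts were 796 (14%) and 695 (12.2%) of 5678, Hspa8 stood at 2.36 and Grb14 at -4.10. With cells at or under 8% alone they were 496 and 545. All 12 measured mitochondrially encoded transcripts were below a ratio of 0 in C5 over C4, with a median of -0.41. Of 41 S phase genes 6 were higher in C5 and none lower. Of 51 G2 and M genes 10 were lower and 1 higher, with a median of -0.34, while 10.7% of all genes were lower. Top2a had 220 CPM in C5 and 391 CPM in C4. The mix of phases differed, with 116 of 212 C4 cells and 454 of 986 cycling C5 cells leaning to G2/M by score. The part of this mix in the counts of the S phase and G2 and M lists was not tested.

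**Figure D4:**
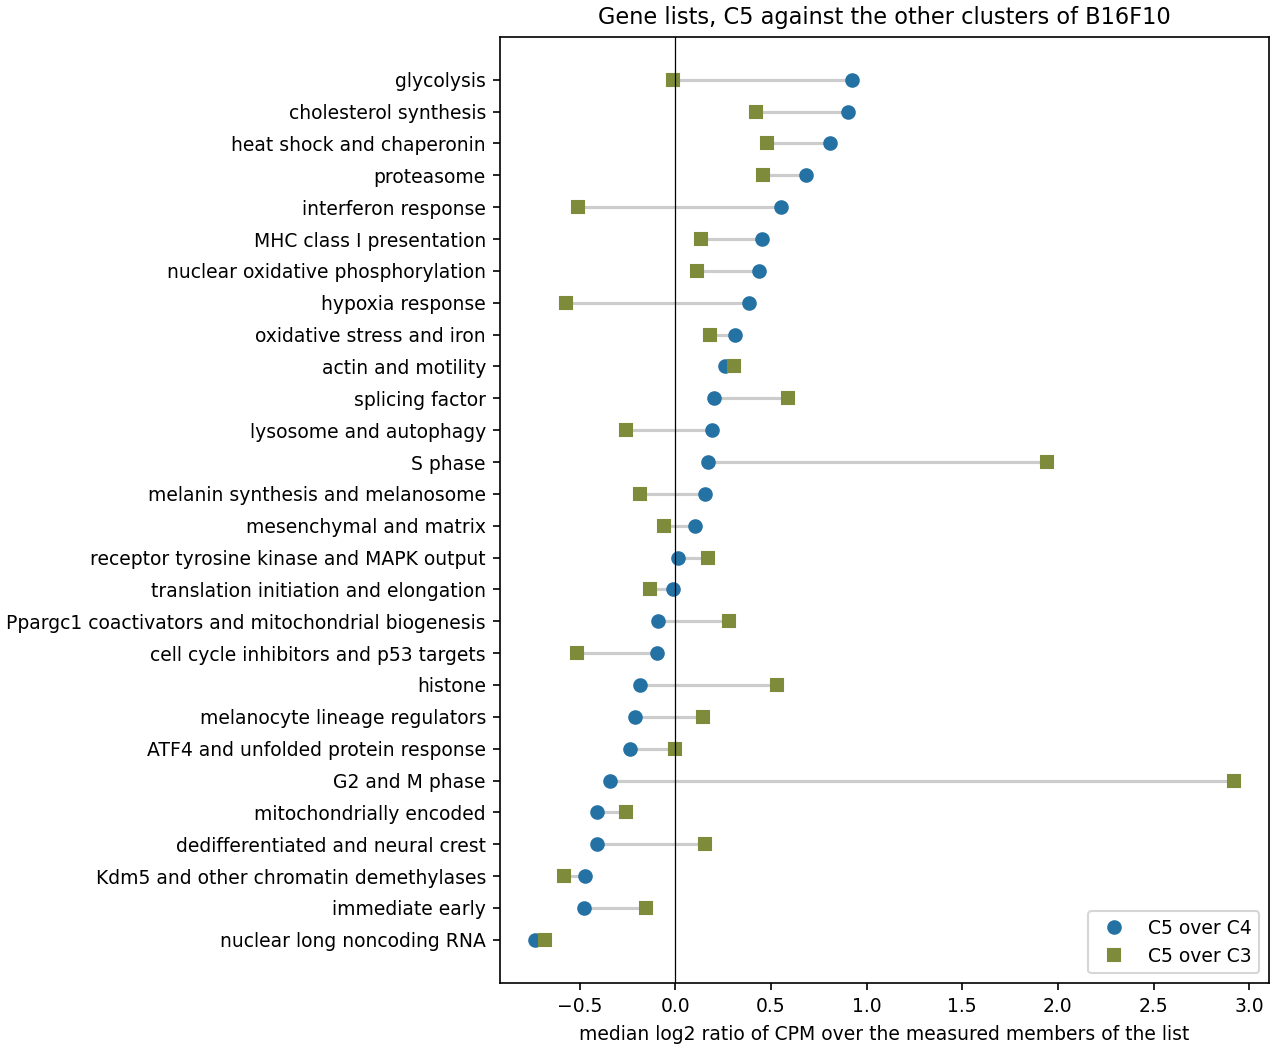
Median log2 ratio of CPM over the measured members of each gene list, for C5 over C4 (circles) and C5 over C3 (squares). Glycolysis lies at 0.92 over C4 and -0.01 over C3, and the G2 and M phase list at -0.34 over C4 and 2.92 over C3.

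Against C3, whose cells were mostly non-cycling, 893 of 5381 genes (16.6%) were 1.5-fold higher in C5 and 289 (5.37%) lower. The cell cycle lists are not counted here, because C3 is mostly non-cycling by scores of such transcripts and many members reach 20 CPM only in C5. Ccna2 had 115 CPM in C5 and 4.91 CPM in C3, a log2 ratio of 4.55. Among the lower genes were Mxd4, an antagonist of Myc, with 14.3 CPM in C5 and 56.5 CPM in C3, and Bnip3, a mitophagy receptor induced by hypoxia, with 42.7 CPM in C5 and 139 CPM in C3. Bnip3 went the other way against C4, which had 25.3 CPM, and its difference from C3 lay in a minority of high C3 cells, as given below. Cdkn1a, the cyclin-dependent kinase inhibitor downstream of p53, had 147 CPM in C5, 193 CPM in C4 and 297 CPM in C3. Kdm5b, a histone demethylase by which the authors classed cells, had 9.56 CPM in C5, 14.1 CPM in C4 and 33.5 CPM in C3. The authors' high class held 45 C5 cells (4.31%), 12 C4 cells (5.66%) and 64 C3 cells (20.9%).

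In a further comparison the cycling class was matched on both sides. Of the 244 other cycling cells 212 were C4 cells, and the other non-cycling cells were mostly C3 cells. The comparison is thus close to those with C4 and C3 above. The clusters were made from the same RNA, so some genes past 1.5-fold are to be found in either class. The part of the cycling class was not tested. Among cycling cells, C5 over the rest gave 635 (11.4%) higher and 496 (8.87%) lower of 5593 genes. Among non-cycling cells it gave 645 (12.2%) higher and 229 (4.35%) lower of 5266 genes, from 59 C5 cells and 285 other cells. Cycling C5 cells had a median of 38122.5 UMIs and non-cycling C5 cells 31213. In the non-cycling sets Bnip3 had 20.4 CPM in C5 and 145 CPM in the others, a log2 ratio of -2.83. Ero1l, the ER oxidase gene, had 66.3 against 225 CPM, Deptor, an inhibitor of mTOR, had 38.1 against 124 CPM, and Ppargc1a had 66.8 against 220.2 CPM. Of 8 measured hypoxia response genes, 4 were lower in the non-cycling C5 cells and none higher. These values come from summed counts, and a minority of C3 cells held many UMIs of Bnip3 and Ero1l, as given below. In the other direction stood the small heat shock protein gene Hspb6, with 51.7 CPM in non-cycling C5 cells and 13.8 CPM in the others. The mitotic genes Cdca8 and Knstrn and the replication gene Pclaf followed, with log2 ratios of 1.81 to 1.85. Cell cycle genes that were low in both sets did not reach 20 CPM. Aurkb had 4.17 against 2.60 CPM, a log2 ratio of 0.69 (-0.68 to 1.89), so no difference was detectable at this depth. The higher score lay within 0.05 of 0 in 16 of these 59 cells.

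Per cell, the differences were broad for some genes and narrow for others. Each cell was thinned to 23173 UMIs, which kept 974 C5, 177 C4 and 257 C3 cells and left out 71, 35 and 49 shallower ones. Hspa8 exceeded the C4 median in 96.6% of C5 cells, and Ldha in 97.3%. The C3 median was exceeded in 91.3% of C5 cells for Ldha, 78.9% for Eno1 and 74.3% for Aldoa. Their 95th percentiles were higher in C3, at 71.2 against 63 UMIs in C5 for Ldha, 52.2 against 43 for Eno1 and 75.4 against 55 for Aldoa. Grb14 had a UMI in 16.8% of C5 cells (14.5 to 19.3), in 73.4% of C4 cells (66.3 to 79.8) and in 53.7% of C3 cells (47.4 to 59.9). Unthinned, the shares were 22.3%, 79.7% and 57.5%. Its median was 0 UMIs in C5, 2 in C4 and 1 in C3, with 95th percentiles of 2, 16 and 14, so Grb14 was uneven inside C4 and C3 as well. Nupr1 had a UMI in 64.6% of C5, 98.9% of C4 and 90.3% of C3 cells (unthinned 73.3%, 99.1% and 93.8%), and Ppp1r15a in 51.7%, 96.0% and 78.2% (unthinned 64.3%, 96.2% and 88.2%). Ppargc1a had a UMI in 69.9% of C5, 85.3% of C4 and 81.7% of C3 cells (unthinned 80.4%, 85.4% and 89.2%), and Met in 83.6%, 79.1% and 86.8% (unthinned 90.0%, 79.2% and 89.5%). Bnip3 had a UMI in 34.4% of C5 and 37.7% of C3 cells (unthinned 47.2% and 44.4%), with a median of 0 in both. Its 95th percentiles were 4 in C5 and 23.4 in C3, so the difference between the sums lay in a minority of cells. Ero1l had medians of 1 in C5 and 2 in C3, with 95th percentiles of 5 and 23.8. Free RNA can give UMIs in cells that do not express a gene. Its share could not be measured, since every cell in the table is a melanoma cell.

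**Figure D5:**
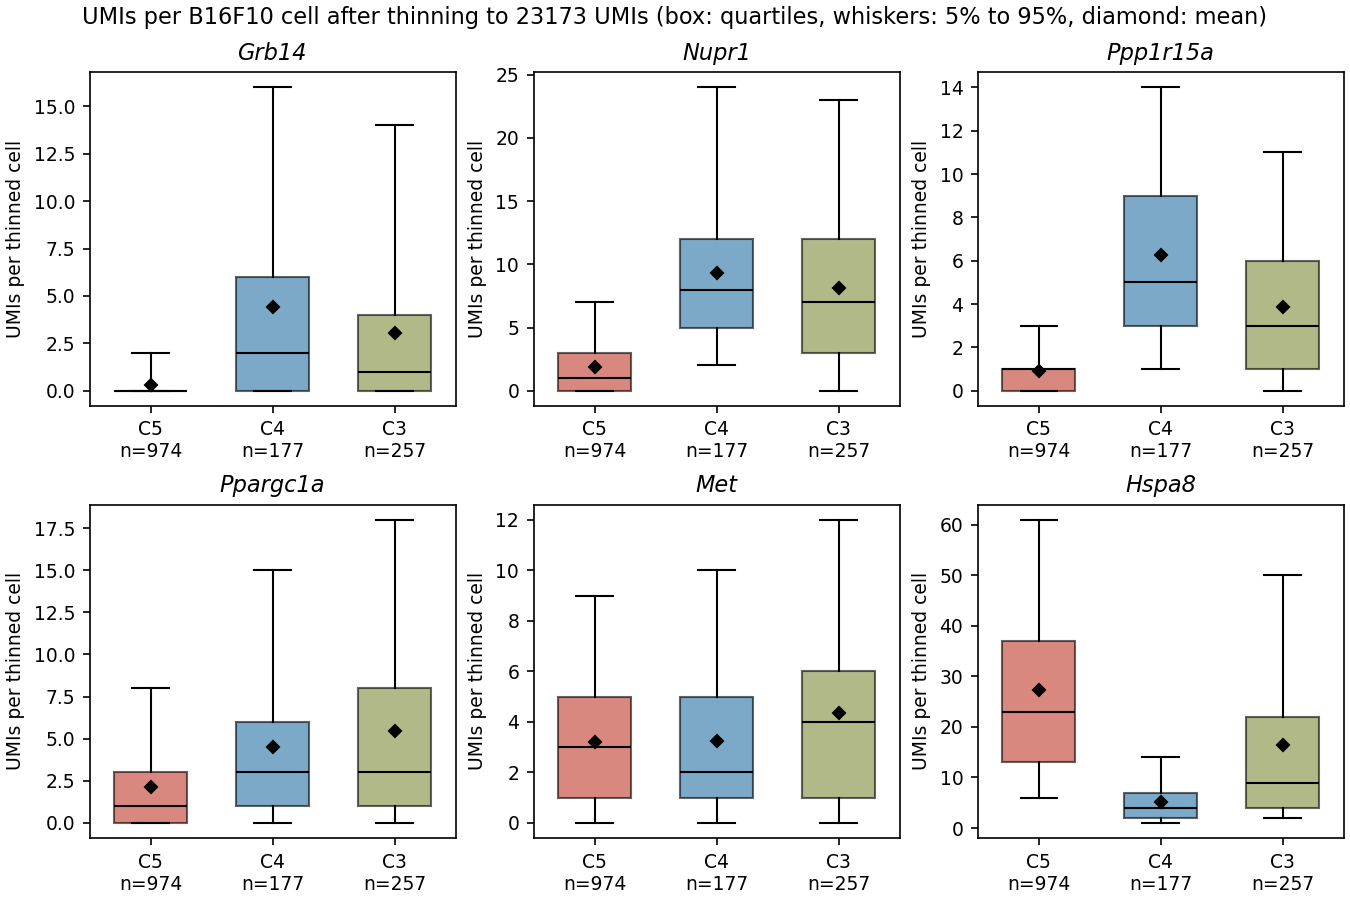
UMIs per cell after thinning to 23173 UMIs for 6 genes in C5 (n = 974), C4 (n = 177) and C3 (n = 257) of B16F10. Boxes give the quartiles, whiskers the 5th and 95th percentiles and diamonds the mean; the C5 boxes of Grb14, Nupr1 and Ppp1r15a lie lowest and that of Hspa8 highest.

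Inside the cluster, cells were first set apart by the cycling class. Cycling over non-cycling C5 cells gave 361 of 5395 genes (6.69%) at least 1.5-fold higher and 205 (3.80%) lower. The classes follow from scores of these same transcripts, so nothing is read from the cell cycle genes. Outside them, Mxd4 had 12.1 CPM in cycling and 58.4 CPM in non-cycling C5 cells. The LIM domain gene Pdlim2 had 40.2 against 128 CPM, Hspb6 17.1 against 51.7 CPM, the transcription factor gene Tsc22d1 50.7 against 152 CPM and the myelin gene Mbp 40.8 against 109 CPM. Tmsb4x, the actin monomer-binding thymosin, had 102 CPM against 203 CPM. None of 25 proteasome genes, 13 glycolysis genes or 17 heat shock genes passed 1.5-fold between cycling and non-cycling C5 cells, with medians of -0.07, 0.10 and 0.09. Hspa8 had 1218 CPM in cycling and 1227 CPM in non-cycling C5 cells.

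Among the 986 cycling C5 cells, 454 had a G2/M score above their S score and 532 did not. Between them 123 of 5307 genes (2.32%) were 1.5-fold higher in the G2/M-leaning cells and 91 (1.71%) lower. Of 53 G2 and M genes 42 were higher and of 42 S phase genes 31 were lower, which follows from the scores. No gene of the glycolysis, proteasome, heat shock, cholesterol synthesis, splicing factor or translation lists passed 1.5-fold in either direction. Nupr1 had 79.9 CPM in G2/M-leaning and 70.0 CPM in S-leaning C5 cells.

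Smaller classes inside C5 differed in genes chosen here after their values were seen. The 45 Kdm5b high C5 cells had 178 CPM of Nupr1, against 73.9 CPM in the 1000 Kdm5b low C5 cells, 114 against 39.8 CPM of Bnip3 and 135 against 52.4 CPM of Tsc22d1. They had 60.5 against 226 CPM of Top2a and 11.1 against 71.2 CPM of Rad51ap1. Of the 45, 14 were non-cycling, against 45 of the 1000. The 26 non-cycling C5 cells of state 7 had 175 CPM of Nupr1 and 83.5 CPM of Mxd4, against 116 and 38.9 CPM in the 33 of state 1.

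Dispersion pointed to a few other transcripts. The Fano factor, the variance over the mean of thinned UMIs, had a median of 1.09 over 9028 genes with a mean of at least 0.1. Ccl5, a chemokine, had the largest at 61.5. It had a UMI in 29 of the 1045 C5 cells, and 5 of them held 76.6% of its 359 UMIs, with 141 in 1 cell. The iron storage genes Ftl1 (50.7) and Fth1 (29.2), the nuclear RNA Malat1 (44.8) and Actb (40.4) followed with 4 mitochondrial transcripts and Lgals3, a galectin (19.8). The Fano factor rises with the mean at an equal relative spread, so it does not rank these genes by unevenness. Mean thinned UMIs were 679 for Ftl1, 217 for Fth1, 87.3 for Malat1 and 43.3 for Actb, against 0.248 for Ccl5. Ftl1 ran from 408 to 978 between its 5th and 95th percentiles. Lgals3 had a median of 5 and a 95th percentile of 37.4 thinned UMIs, with up to 129 in a cell. Ftl1, Fth1 and Actb have near-identical pseudogene copies, and the treatment of reads shared between copies is not stated in the sources used here.

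Across the 974 thinned C5 cells, list sums moved together as a description. The Spearman coefficient was 0.58 between proteasome and nuclear oxidative phosphorylation genes, 0.56 between proteasome and heat shock genes and 0.51 between glycolysis and heat shock genes. Mitochondrially encoded transcripts ran against them, at -0.56 with proteasome and -0.52 with heat shock genes. S phase and G2 and M sums stood at -0.34. These cells share 1 library and a fixed total, so that a larger share of 1 list lowers the others. Over all 1045 C5 cells the mitochondrial share had a coefficient of -0.36 with UMIs per cell.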

How the data were processed

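The authors deposited raw UMI counts for 14959 genes and 4156 cells, natural log values made from them, and a cell annotation. Per the file headers, the annotation holds clusters, classes and cell cycle, MITF and pseudotime scores. The natural log values equal ln of 1 plus the count per 10000 (largest difference 6.22e-15) and served only as a check. The submitters' processing notes name Cell Ranger 3.0.0, Seurat 3.0 and mm10, and Chromium chemistry v2 in the labels' protocols. No source used here gives the settings behind the clusters, scores or cell filter. C5 held 39954526 UMIs and the other B16F10 cells 16794156.

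Counts were summed over cells and divided by their total (CPM). Log2 ratios carry exact conditional binomial intervals and CPM values Poisson intervals. A count of 0 in C5 allows 0.0751 CPM (3 counts). Genes reaching 20 CPM in either set were counted at 1.5-fold or 2-fold. No test was made. Named genes are the 12 at either end with at least 50 CPM (no predicted, ribosomal protein or mitochondrial genes), the 8 at either end of the narrower comparisons, the 3 largest of each of 33 lists, 16 chosen genes and the 10 largest Fano factors. Further list members and the genes of the Kdm5b and state classes were named after their values were seen. Members and lists were chosen with earlier results of these data known. Cells were thinned once, with a fixed seed. No doublet caller was run, and the 5% of cells with the most UMIs were left out as an alternative. Positions came from GENCODE M21 (14751 symbols matched) and promoters from RefSeq. The log2 ratio and its interval were run on simulated Poisson sums, where 94.7% of intervals held the true ratio. The interval assumes that model, so this checks the code only. The simulation had no spread between cells, and thinning, shares, lists and motifs were not simulated. Tools were Python 3.11.15, pandas 2.3.3, scipy 1.17.1, edgeR 4.0.16 and DESeq2 1.42.0, both of these only for scaling factors.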

Additional observations from a re-analysis of the deposited data

Results flagged for a closer look

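The deposited cell table also puts 13 B16F0 cells in C5. They are outside every comparison between B16F10 cells above, but are part of the values given for all B16F0 cells. Tmsb4x and Ppargc1a, which are scarce in the other B16F0 cells, were counted in some of them. Tmsb4x had 38.7 CPM (22.6 to 62.0) in these 13 cells, against 2.07 CPM (1.79 to 2.38) in the other B16F0 cells. Ppargc1a had 20.5 CPM (9.37 to 38.9), against 4.71 CPM (4.28 to 5.17). The 17 Tmsb4x UMIs came from 5 of the 13 cells and the 9 Ppargc1a UMIs from 3, of which 1 cell held 6. Met stood at 13.7 CPM (5.01 to 29.7), against 13.1 CPM (12.4 to 13.9), so it did not follow them. Transcripts that are high in B16F0 were also present. Ptgds had 736 CPM in the 13 cells, against 1396 CPM in the other B16F0 cells and 222 CPM in all B16F10 cells, and Fam178b had 84.3 CPM, against 147 and 10.9 CPM.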

How the results depend on the processing

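No paired analysis was possible because each line has 1 library, the comparisons are between cells of the B16F10 library and the results come from no test. The counts of 650 higher and 294 lower genes became 429 and 442 when mitochondrial and ribosomal protein genes were left out of the totals, 2186 and 2623 with no CPM minimum, and 213 and 47 with a minimum of 100 CPM. Lower genes numbered 496 among cycling cells. The counts of 361 and 205 for cycling over non-cycling C5 cells became 3593 and 2055 with no minimum and 66 and 19 at 100 CPM. Of the 95 named genes past 1.5-fold, all 95 kept their sign under TMM, size factors and the smaller total. These scalings shift every log2 ratio alike, by 0.0007, 0.023 and -0.12, so no sign could change and nothing is read from it. All 95 also kept their sign with the mean of per-cell CPM, without the deepest cells, at 8% mitochondrial UMIs or less and without shared barcodes. Among cycling cells 89 did, with Aurka at -0.20, Bnip3 at 0.65, Cenpe at -0.26, Cenpf at -0.39, Hist1h1c at 0.63 and Hist1h2bc at 0.76, and the G2 and M list median at -0.14. Among non-cycling cells 94 did, with Atf3 at 0.12. Still past 1.5-fold were 95 genes under TMM and without shared barcodes, 94 with size factors and with per-cell means, 93 without the deepest cells, 90 with the smaller total, 87 at 8% mitochondrial UMIs or less, 79 among cycling cells and 72 among non-cycling cells. Of the 5 lists with a median past 1.5-fold (S phase, G2 and M phase, cholesterol synthesis, chromatin demethylases and nuclear long noncoding RNA), 2 stayed past it among cycling cells, 2 among non-cycling cells and 2 at 8% mitochondrial UMIs or less. With the smaller total 4 stayed, with no CPM minimum 4, and at a minimum of 100 CPM 2 of the 3 still measured. Of the 23 other lists, 18 kept the sign of their median with the smaller total, 15 among cycling cells and 19 among non-cycling cells. The cause was not tested, beyond the change in cells and genes counted. The non-cycling C5 set, 59 cells with 1916565 UMIs, has the least depth, and 3 counts there are 1.57 CPM. The alternative without shared barcodes and those for C5 over C4 were chosen after seeing the data.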
